A study of Mus musculus with 6 samples.

Results

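The C1q/TNF-related proteins were examined in the proximal tibia of Longshanks and Control mice, with cartducin (C1qtnf3) as the best known cartilage member. The members were 8 genes of the 47729 in the table, C1qtnf1, C1qtnf2, C1qtnf3, C1qtnf4, C1qtnf5, C1qtnf6, C1qtnf7 and C1qtnf12, taken by matching their Ensembl identifiers to symbols of the GRCm38 annotation. They were chosen by family, as part of its genes, and with their LS1 against Control normalized counts known, so those values are given as a description and no test is read from them. C1qtnf9 and Erfe, which also belong to the family and were not among the 8, are given with the other C1q-domain genes. Reads sufficient for the comparison, a mean of at least 20 over the 6 libraries, were found for 7 of the 8 members and for 19308 genes in all.

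Both groups were 14-day-old mice of generation F13 with no treatment. The 3 LS1 mice belonged to Longshanks 1, a line selectively bred for tibiae that are long for the body mass, and the 3 Control mice to a random-bred line of the same ICR (CD-1) stock. Mice of a group came from different families, and neither line is inbred, so the comparison is between lines and not between alleles of a gene. Each library held polyadenylated RNA of both proximal tibial epiphyses of 1 mouse, with articular cartilage, secondary ossification center, growth plate and metaphysis together. The 10 chondrocyte markers all had reads in every library, with Control means from 4882 normalized counts for Sox9 to 1481072 for Col2a1, and bone, marrow and muscle markers were present too.

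C1q/TNF-related proteins (CTRPs) are secreted relatives of adiponectin. A typical member has a signal peptide, a collagen-like stalk of Gly-X-Y repeats, in which glycine is followed by any pair of residues, and a globular C1q domain that folds like tumor necrosis factor and drives assembly into trimers. Cartducin was found in cartilage, where it is made by growth plate chondrocytes and their precursors, and the recombinant protein stimulates growth of chondrogenic precursors in culture. Most other members are studied as hormones of fat, muscle and vessels that act on glucose and lipid metabolism.

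The collagen-like stalk can be seen in the coding sequences, and 4 of them are printed because they belong to the 3 most abundant members and to the member that departs most from the plan. The letters are from the GENCODE M21 transcripts of GRCm38, read 5′ to 3′ on the coding strand. Capitals mark the first codon of each repeat, which begins with GG and so encodes glycine. The runs printed are the longest in which each set of 3 codons starts with such a codon. In C1qtnf3 the run has 23 repeats, from codon 45 to codon 113 of 246, and lies at chr15:10958005-10960770 (plus strand) in exons 2 and 3 of 6. In C1qtnf6 it has 14 repeats and lies at chr15:78525274-78527228 (minus strand) in exons 2 and 3 of 3. In C1qtnf12 it has 8 repeats within exon 3 of 8, at chr4:155964771-155964842 (plus strand). In C1qtnf4, which carries a pair of C1q domains in place of a stalk, no run exceeded 2 repeats, and its longest lies at chr2:90889403-90889420 (plus strand) in exon 2 of 2.
C1qtnf3: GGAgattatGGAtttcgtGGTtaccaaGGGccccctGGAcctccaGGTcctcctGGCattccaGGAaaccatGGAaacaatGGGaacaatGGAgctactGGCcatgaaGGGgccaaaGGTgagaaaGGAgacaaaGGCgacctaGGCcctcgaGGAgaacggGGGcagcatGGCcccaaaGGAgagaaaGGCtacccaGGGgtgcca
C1qtnf6: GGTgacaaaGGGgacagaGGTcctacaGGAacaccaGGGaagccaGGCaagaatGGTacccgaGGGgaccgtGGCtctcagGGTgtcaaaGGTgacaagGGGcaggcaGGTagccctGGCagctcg
C1qtnf12: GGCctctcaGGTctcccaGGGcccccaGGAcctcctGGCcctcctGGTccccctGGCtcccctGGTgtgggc
C1qtnf4: GGCttcctaGGCccggcg
The stalk of C1qtnf5 had 23 repeats, as many as cartducin, while C1qtnf2 and C1qtnf7 had 34 each and C1qtnf1 had 14. Both genes with 34 repeats were among the lowest of the 8 members in this tissue.

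The 250 bases before the annotated start of C1qtnf3 are shown because it was the only member whose groups did not overlap. They are at chr15:10952082-10952331 of GRCm38.p6 (plus strand, RefSeq), and the capitals mark the letters TATAAA, which match the core of a TATA box.
C1qtnf3 promoter: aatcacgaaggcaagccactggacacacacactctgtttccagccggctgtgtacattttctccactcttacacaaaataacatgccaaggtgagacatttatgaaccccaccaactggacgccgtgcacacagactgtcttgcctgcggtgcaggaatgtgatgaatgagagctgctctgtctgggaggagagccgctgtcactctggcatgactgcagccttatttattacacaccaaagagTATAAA
The match ends 1 base before the annotated start, and the letters ACCACA, the core bound by RUNX factors, follow it directly. The TATAAA letters thus lie at the annotated start and not well upstream of it, so they are not shown to act as a TATA box. Searched on both strands of windows that run from 250 bases before to 50 bases after a start, TATAAA occurred in 13.6% of 32851 mouse promoters, ACCACA in 16.8% and the SOX core ACAAAG in 18.7%. The C1qtnf3 window held TATAAA and ACCACA on its own strand and no ACAAAG. The motifs were chosen after the sequence was seen, and a match is a string of letters and not a measured site. Windows were at hand for 5 of the 8 members (C1qtnf2, C1qtnf3, C1qtnf5, C1qtnf6 and C1qtnf7), and of the other 4 only that of C1qtnf5 held one of the 3 motifs, ACCACA. The window listed for C1qtnf5, chr9:44101520-44101819, lies at the start of Mfrp (chr9:44101729), upstream of the C1qtnf5 gene start at chr9:44107245.

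The libraries held 68803249 to 76581954 reads in Control and 82227711 to 88745366 in LS1, so every LS1 library was deeper. Values are normalized counts, reads divided by 1 size factor per library. LS1 replicate 3 stood apart from the other LS1 libraries on the first principal component (35.1% of the variance), at -4.29 against 43.7 and 50.1 in LS1 and -41.5 to -22.1 in Control, and values without it are given beside the main genes it moved.

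C1qtnf3 (ENSMUSG00000058914, chr15:10952332-10980150) was the most abundant member per length of exon in all LS1 mice and was higher there than in any Control mouse. In Control it was at 19416, 17559 and 15864 normalized counts, and in LS1 at 44731, 34916 and 27159. The lowest LS1 mouse was thus above the highest Control mouse, and the groups did not overlap. The Control mean was 17613 ± 1776 (SD, n = 3). The LS1 mean was 35602 ± 8806 (SD, n = 3), and the difference was 0.99 on the log2 scale (SE 0.18), a fold of 1.99. The spread was wider in LS1, with a coefficient of variation of 24.7% against 10.1% in Control. LS1 replicate 3 was the lowest of its group, and the log2 difference without it was 1.17. Leaving out LS1 replicate 1, the highest library, gave 0.81. The paper also measured C1qtnf3 by qPCR in dissected growth plates of a later generation. It reported no significant difference from Control there, in LS1 or in a second Longshanks line. The libraries here held the whole epiphysis, so the 2 measures differ in tissue as well as in method.

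Per kilobase of exon, C1qtnf3 was at 6888 normalized counts in Control and 13923 in LS1. Among 14980 protein-coding genes this was rank 370 in Control and rank 153 in LS1, where the median gene was at 382 and 389. Its exons overlap no other gene. As background to the comparison, 14 of 19308 genes (0.0725%) were called by limma at an adjusted p-value under 0.05, and 0 of the 7 tested members were among them. By unadjusted p, 2499 genes were under 0.05, C1qtnf3 included as the only member. Groups that do not overlap, with LS1 higher, were found for 10.3% of the genes tested and for 1 of the 7 members, C1qtnf3, while 8.94% of genes and 0 members were lower without overlap.

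C1qtnf3 was called in 4 of the 18 other settings. These were DESeq2, where 2.38% of all genes were called, the fit without a filter on low counts (0.117%), the fit with the title letter as a block (0.0622%), and the fit without LS1 replicate 3 (1.68%). Because C1qtnf3 was chosen with this contrast in view, nothing is read from these calls.

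**Figure D1:**
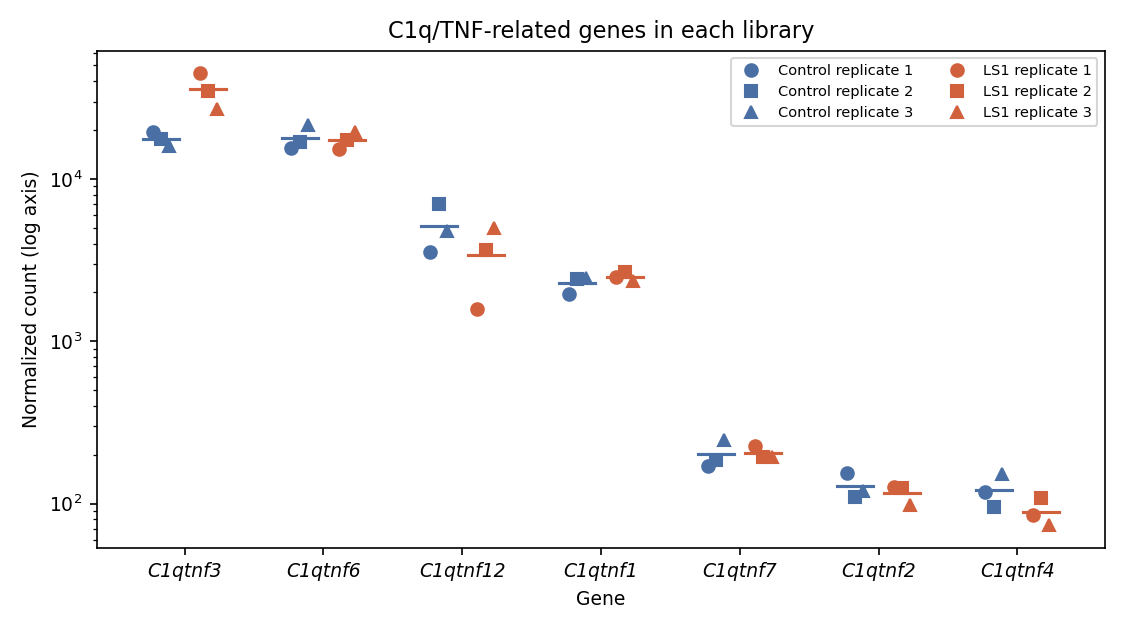
Normalized counts (log axis) of the 7 tested C1q/TNF-related genes in each of the 3 Control (blue) and 3 LS1 (orange) libraries, with bars at the group means. Of the 7 genes only C1qtnf3 has every LS1 point above every Control point, and levels of the 7 genes run from 73.7 counts for C1qtnf4 to 44731 for C1qtnf3.

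C1qtnf6 (chr15:78523346-78531416), a widely expressed secreted member, was next in level. It was at 15416, 16994 and 21612 normalized counts in Control and at 15206, 17421 and 19346 in LS1. The groups overlapped along nearly their whole range, and the log2 difference was -0.05 (SE 0.16). Per kilobase it was at 6665 in Control and 6412 in LS1, so in Control it lay close to C1qtnf3, with a ratio of C1qtnf3 to C1qtnf6 of 1.33, 1.09 and 0.776 in the 3 mice. In LS1 the same ratio was 3.11, 2.12 and 1.48, above every Control mouse. Antisense to C1qtnf6 lies Gm49490, a gene not in the table, which shares 4.33% of its exon bases.

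C1qtnf12 (adipolin, a fat-derived hormone that raises insulin action) was the most variable of the abundant members. Its levels were 3528, 7024 and 4812 normalized counts in Control and 1576, 3655 and 4964 in LS1. The lowest value was in LS1 replicate 1, which had the highest C1qtnf3, but LS1 replicate 3 lay above 2 of the Control mice. The log2 difference was -0.69 with an SE of 0.49, and the coefficients of variation were 34.5% in Control and 50.3% in LS1. Without LS1 replicate 1 the difference was -0.21, and without LS1 replicate 3 it was -1.04. Of 5 adipocyte markers tested, 2 were higher and 3 lower in LS1, and no marker was at 0. Their summed level, most of it Fabp4, ran from 13812 to 15399 in Control and from 9697 to 21197 in LS1. The part of fat cells in the C1qtnf12 values was not tested. C1qtnf12 lies at chr4:155962318-155966629 and overlaps no other gene.

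C1qtnf1 (chr11:118428203-118449963), a plasma protein of vessel wall and fat known to restrain platelet aggregation on collagen, was steadier. It was at 1959, 2408 and 2471 normalized counts in Control and at 2473, 2666 and 2365 in LS1. The ranges overlapped, and the log2 difference was 0.14 (SE 0.15). Its level per kilobase was 728 in Control and 799 in LS1. Antisense Gm11747 shares 20.5% of its exon bases, and the sources used here do not state whether reads were counted by strand, so reads of the pair cannot be told apart in that stretch.

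The other 3 tested members were low. C1qtnf7, a member of fat and lung with effects on glucose handling, was at 172, 186 and 247 normalized counts in Control and at 227, 193 and 195 in LS1. C1qtnf2, the close relative of adiponectin, was at 155, 110 and 119 in Control and 128, 124 and 98.9 in LS1. C1qtnf4, which is expressed in brain and affects food intake, was at 118, 95.3 and 153 in Control and 84.8, 109 and 73.7 in LS1. In all 3 genes the groups overlapped, with log2 differences of 0.04 (SE 0.24), -0.12 (SE 0.27) and -0.44 (SE 0.30). A mean of 205, 124 and 106 reads lay behind them. They lie at chr5:43515538-43618803, chr11:43474276-43491525 and chr2:90885860-90890525.

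C1qtnf5, a protein of the retinal pigment epithelium and ciliary body, was listed with 0 reads in each of the 6 libraries. A count of 0 allows up to 3 reads per library, for counting error only. The annotation places all of its 1589 exon bases (100%) inside exons of Mfrp, on the same strand at chr9:44107245-44109187, and both are known to be made from 1 bicistronic transcript. Mfrp itself, a receptor-like membrane protein that binds C1qtnf5, was at 6.05, 15.5 and 14.4 normalized counts in Control and 21.0, 18.3 and 17.7 in LS1, too few for the comparison. How reads that fall in several genes were counted is not given in the sources used here, so the 0 is not a measure of absence.

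Ordered by level per kilobase in Control, the 7 tested members ran C1qtnf3, C1qtnf6, C1qtnf12, C1qtnf1, C1qtnf2, C1qtnf4 and C1qtnf7. C1qtnf3 spanned 6204 to 7593 per kilobase over the Control mice and C1qtnf6 5706 to 7999, so these neighbours were not separated by their spread. C1qtnf12 spanned 2583 to 5142 and lay below both in every Control mouse. C1qtnf2 (83.9 to 119) and C1qtnf4 (73.9 to 118) overlapped too. In LS1 the order of the 7 genes was unchanged, but C1qtnf3, at 10621 to 17494 per kilobase, no longer overlapped C1qtnf6 at 5628 to 7160.

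C1qtnf3 took a larger share of the 8 members in each LS1 mouse than in any Control mouse. It made up 45.3%, 35.6% and 33.0% of the members' summed level per kilobase in Control and 69.2%, 57.2% and 47.5% in LS1. The sum with C1qtnf3 ran from 16759 to 19270 in Control and from 22350 to 25282 in LS1. Without C1qtnf3 it ran from 9166 to 12580 in Control and from 7789 to 11729 in LS1, with the groups overlapping.

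**Figure D2:**
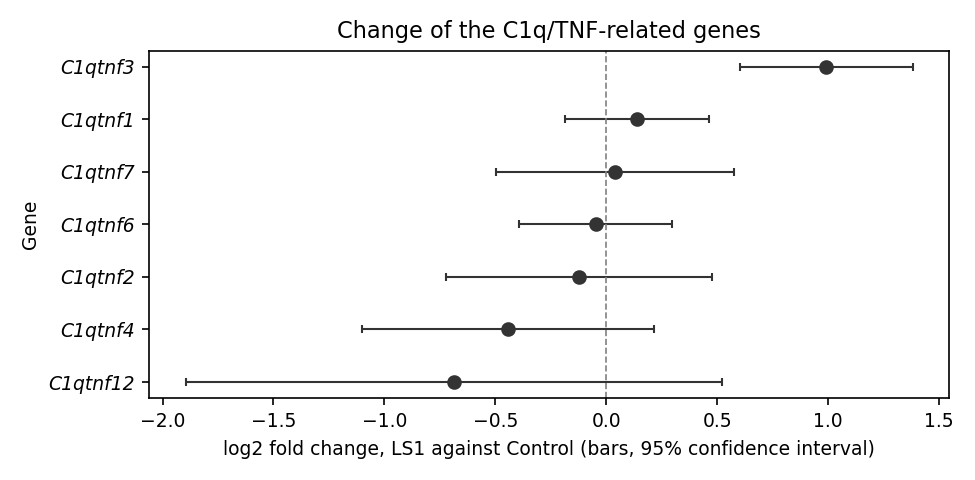
log2 fold change of LS1 against Control for the 7 tested C1q/TNF-related genes, with 95% confidence intervals from limma as bars and a dashed line at no difference. C1qtnf3 lies at 0.99, C1qtnf12 has the widest interval, and the other 5 genes lie between -0.44 and 0.14.

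C1qtnf3 is a chondrocyte gene, and chondrocyte markers were higher in LS1 as well. In bulk tissue more cells of a type and more RNA per cell cannot be told apart. Of 10 chondrocyte markers, 9 were higher in LS1 and 6 did so without overlap, against 10.3% of all genes tested. These markers had a median log2 difference of 0.53, though 0 were called. Their summed level ran from 2124802 to 2457914 normalized counts in Control and from 2674670 to 3214847 in LS1, and no marker was at 0. Hapln1, the link protein that ties aggrecan to hyaluronan, differed by 0.94 on the log2 scale (SE 0.20, adjusted p = 0.159, limma), while Sox9, the master transcription factor of chondrocytes, differed by 0.48 (SE 0.21, adjusted p = 0.371). In dissected growth plates the paper's qPCR found no significant difference of Hapln1, Matn3 or Col2a1 in Longshanks mice. Sox9 was lower there, significantly in the second Longshanks line and as a trend in LS1.

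Relative to the geometric mean of these 10 markers, the log2 level of C1qtnf3 was -1.93, -2.17 and -2.17 in Control and -1.27, -1.65 and -1.86 in LS1. Each LS1 mouse still lay above each Control mouse, by a mean of 0.50 on the log2 scale, where the markers themselves were higher by 0.49. LS1 replicate 3 lay just above Control replicate 1, the highest of its group. The part of chondrocyte share in the C1qtnf3 difference was not tested beyond this ratio.

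Markers of tendon, ligament and joint lining were higher in LS1 on balance. Of 5, 4 were higher in LS1, with a median log2 difference of 0.64, none was called and none was at 0, and their sum ran from 7072 to 8460 in Control and from 8857 to 16866 in LS1. Relative to them C1qtnf3 was higher in LS1 by 0.42. The 5 hypertrophic chondrocyte markers had a median difference of 0.34 and sums of 1059953 to 1511990 in Control and 1279414 to 1611454 in LS1, and relative to them C1qtnf3 overlapped between the groups. Against the geometric mean of 7 osteoblast and osteocyte markers, C1qtnf3 stood 1.25 higher in LS1. That mean itself differed by -0.26, and the median of the 7 was -0.04. Of the 7, 3 were higher and 4 lower in LS1, the lowest being Bglap (-1.10) and Bglap2 (-1.18). The 5 erythroid markers were all lower in LS1, with 1 called and a median of -0.74. Osteoclast, B cell, neutrophil, endothelial and skeletal muscle lists had medians of 0.04, -0.66, 0.31, 0.08 and -0.68, with 0 genes called. Their part in the C1qtnf3 difference was not tested.

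**Figure D3:**
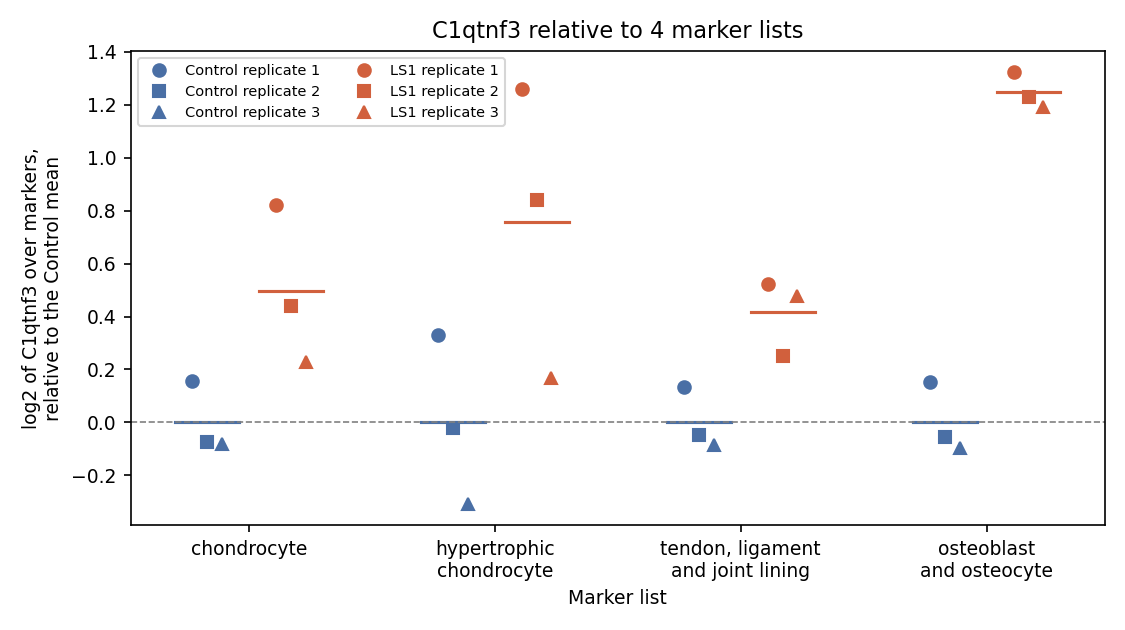
log2 ratio of C1qtnf3 to the geometric mean of 4 marker lists in each library, set to 0 at the Control mean, with Control in blue, LS1 in orange and bars at group means. LS1 lies above Control without overlap for the chondrocyte, tendon and osteoblast lists, while for the hypertrophic list LS1 replicate 3 falls below Control replicate 1.

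The same C1q domain occurs in other secreted and matrix proteins, among them adiponectin, the complement C1q chains, the cerebellins, collagens VIII and X and the emilins. The list held 25 symbols, of which C1qtnf10 and C1qtnf11 matched no row, which does not show that a gene is absent. Rows were found for 23 symbols, and 18 had enough reads. Of these 12 were higher and 6 lower in LS1, with a median log2 difference of 0.09 against 0.01 over all genes tested, and 0 were called by limma, with 3 under an unadjusted p of 0.05. No overlap between groups was seen in 2 of them, both higher in LS1. Over all genes tested, 10.3% were higher and 8.94% lower without overlap, and 12.9% had an unadjusted p under 0.05 by limma.

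Col10a1, the network collagen of hypertrophic cartilage, was the most abundant of them. It was at 315844, 372943 and 340963 normalized counts in Control and at 533299, 504434 and 533263 in LS1. All LS1 mice were above all Control mice, and the log2 difference was 0.61 (SE 0.13, adjusted p = 0.158, limma). DESeq2 called it (adjusted p = 0.00367), as did limma without a filter on counts (adjusted p = 0.0104), and over the 18 settings the adjusted p ranged from 0.00367 to 0.399. Cbln2, a synapse organizer of the cerebellin group, had the highest difference of the list. It was at 307, 160 and 173 in Control and 445, 313 and 376 in LS1, a log2 difference of 0.87 (SE 0.28, adjusted p = 0.271). The lowest was C1ql3, another synaptic protein, at -0.37 (SE 0.71, adjusted p = 0.861), from a mean of 35.6 normalized counts in Control and 27.0 in LS1, and its direction turned without LS1 replicate 3, to 0.27.

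The complement chains C1qa, C1qb and C1qc, made mainly by macrophages, had log2 differences of 0.19, 0.59 and 0.48 (adjusted p = 0.788, 0.313 and 0.445, limma). C1qb was at 1580, 1956 and 2023 normalized counts in Control and 2813, 3839 and 1966 in LS1, so LS1 replicate 3 fell within the Control range. It was called without that library (log2 difference 0.83, adjusted p = 0.0475). Of 5 macrophage markers, 4 were higher and 1 lower in LS1, with a median difference of 0.15, 0 called and none at 0. Their sums ran from 25686 to 34871 in Control and from 31854 to 33409 in LS1. The highest was Adgre1 at 0.83 (1629, 1623 and 1565 in Control, 4876, 3316 and 1431 in LS1), and the lowest Cd163 at -0.44. The part of macrophages in the C1q chain values was not tested. Adiponectin (Adipoq), the hormone that gave the family its model, was at 2740, 2446 and 2947 in Control and 2420, 1989 and 4669 in LS1, a difference of 0.06 (SE 0.28, adjusted p = 0.946). LS1 replicate 3 alone exceeded the Control range, and without it the direction turned, to a log2 difference of -0.30 (adjusted p = 0.399, limma), with both other LS1 mice below all 3 Control mice.

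C1qtnf9, an adiponectin relative of heart and fat, was at 133, 103 and 129 normalized counts in Control and 93.3, 144 and 98.9 in LS1, a difference of -0.14 (SE 0.29, adjusted p = 0.873). Per kilobase it was at 64.1 in Control, between C1qtnf4 and C1qtnf7. Erfe, the erythroblast hormone that lowers hepcidin, was at 324 per kilobase, between C1qtnf1 and C1qtnf2, and differed by -0.13 (SE 0.27, adjusted p = 0.872). The remaining abundant genes of the list differed by less than 0.3 on the log2 scale. Col8a1 and Col8a2, collagens of vessel and corneal basement membranes, differed by 0.17 and 0.20 (adjusted p = 0.708 and 0.597), Emilin1 and Emilin2, glycoproteins of elastic fibers, by 0.11 and -0.28 (adjusted p = 0.779 and 0.494), Mmrn1 and Mmrn2, multimerins of platelets and endothelium, by -0.22 and 0.04 (adjusted p = 0.653 and 0.935), and Caprin2, an RNA-binding protein, by -0.09 (adjusted p = 0.869). Without LS1 replicate 3, Emilin1 and Mmrn2 turned sign, to -0.005 and -0.03, and Col8a1 was at 0.33.

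**Figure D4:**
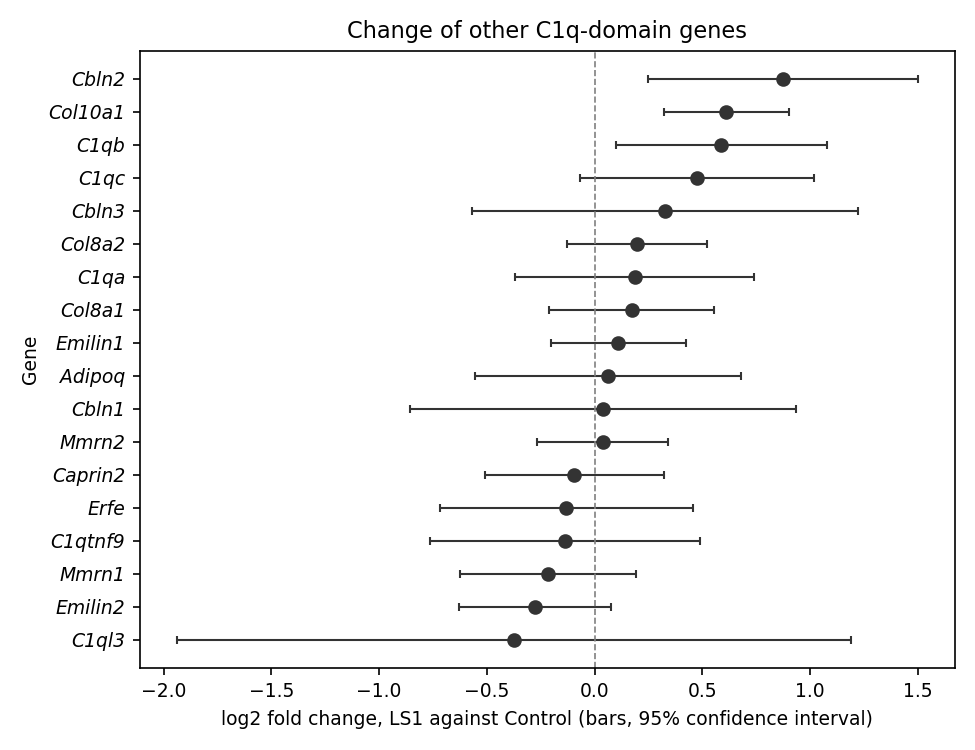
log2 fold change of LS1 against Control for the 18 tested genes of other C1q-domain proteins, with 95% confidence intervals from limma as bars and a dashed line at no difference. Cbln2, at 0.87, and Col10a1, at 0.61, lie highest, and 0 of the 18 genes passed an adjusted p-value of 0.05.

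Proteins named as receptors or partners of CTRPs and their relatives were read as a group of 8 genes, of which 7 had enough reads. Of these 3 were higher and 4 lower in LS1, with a median log2 difference of -0.03. By limma 0 were called, and 1 had an unadjusted p under 0.05, against 12.9% of all genes tested. Lamp1 and Scarb2, lysosomal membrane proteins named as cartducin receptors, differed by 0.11 (SE 0.12, adjusted p = 0.728) and 0.29 (SE 0.13, adjusted p = 0.377). Scarb2 was at 4410, 4508 and 4182 normalized counts in Control and 5913, 4939 and 5175 in LS1, without overlap. The adiponectin receptors Adipor1 and Adipor2 differed by -0.13 and -0.03 (adjusted p = 0.678 and 0.946). Cdh13, the cadherin that binds adiponectin, was highest at 0.32 (SE 0.18, adjusted p = 0.488), and Adgrb3, the receptor of C1q-like synaptic proteins, lowest at -0.55 (SE 0.41, adjusted p = 0.592), or -0.28 without LS1 replicate 3.

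The genes beside C1qtnf3 were read next, since position was no part of how it was chosen. Within 500 kb of its start lay 8 tested protein-coding genes, of which 7 were higher and 1 lower in LS1, with a median log2 difference of 0.18. Over all 19308 genes tested, 9783 were higher. Of the 8, 3 were higher without overlap, against 10.3% of all genes tested. By limma 0 of the 8 were called. Genes of 1 haplotype are not independent of each other. Amacr, the peroxisomal racemase at 29.4 kb and the nearest, differed by 0.04 (SE 0.17, adjusted p = 0.943), or -0.02 without LS1 replicate 3, and Adamts12, a matrix protease that cleaves cartilage oligomeric matrix protein, by 0.30 (SE 0.19, adjusted p = 0.527), or 0.15 without LS1 replicate 3. Ttc23l, at -394 kb from the start of C1qtnf3, was at 46.4, 92.0 and 70.8 normalized counts in Control and 338, 151 and 163 in LS1. Its groups did not overlap, and the log2 difference was 1.58 (SE 0.37, adjusted p = 0.184), while DESeq2 gave an adjusted p of 0.00469 and the 18 settings ran from that value to 0.396.

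Rad1, a DNA damage clamp subunit, and Tars, the threonyl-tRNA synthetase, were also higher without overlap, by 0.26 each (SE 0.17 and 0.13, adjusted p = 0.536 and 0.421). Rai14, an actin-binding protein, differed by 0.04 (adjusted p = 0.919), Brix1, a ribosome assembly factor, by 0.10 (adjusted p = 0.802), and Dnajc21, a co-chaperone of ribosome maturation, by -0.13 (adjusted p = 0.742). Beyond the window, 955 kb after C1qtnf3 and chosen after its values were seen, Npr3, the clearance receptor for natriuretic peptides, was at 426, 339 and 153 in Control and 1223, 1170 and 758 in LS1, a log2 difference of 1.87 (SE 0.36, adjusted p = 0.128, limma). It was called in 3 of 18 settings, by DESeq2 (adjusted p = 1.94e-05), with the title letter as a block (0.0321) and without LS1 replicate 3 (0.0298), and the adjusted p ranged up to 0.333. In dissected growth plates the paper's qPCR went the other way, with Npr3 significantly lower in both Longshanks lines. The other tested gene between 500 and 1000 kb, the prolactin receptor Prlr, differed by -0.28 (SE 0.37, adjusted p = 0.785).

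**Figure D5:**
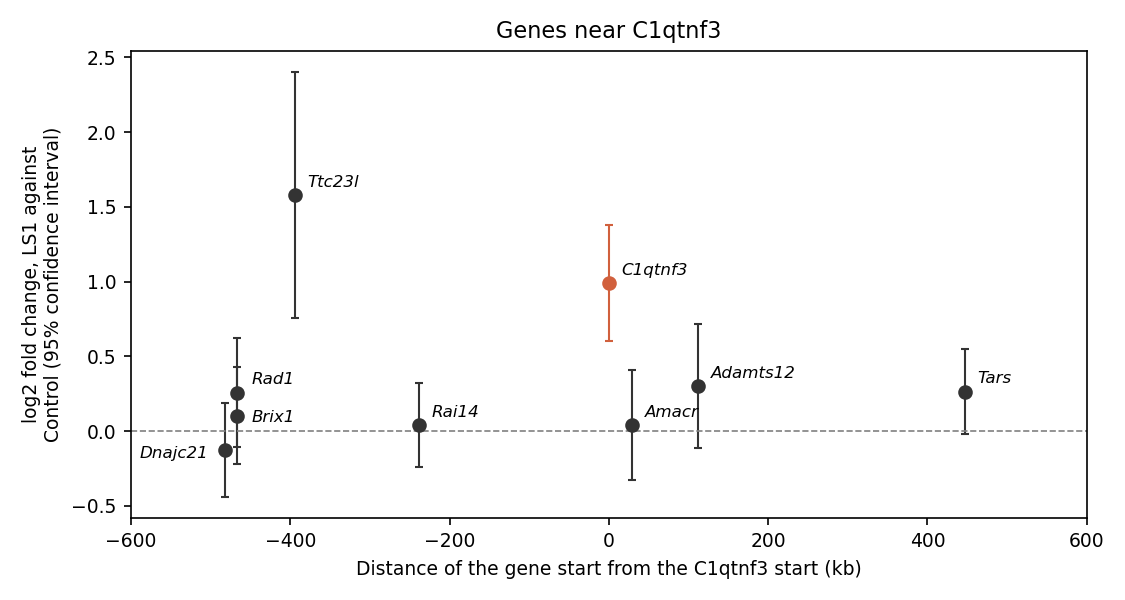
log2 fold change of LS1 against Control (95% confidence intervals from limma as bars) for C1qtnf3 (orange) and the 8 tested protein-coding genes that start within 500 kb, against distance from its start in kb. C1qtnf3 at 0.99 and Ttc23l at 1.58 stand above their neighbours, and the gene nearest to C1qtnf3, Amacr, lies at 0.04.

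Around the other 7 members, the nearest tested protein-coding gene on each side gave 14 genes, 7 higher and 7 lower, with a median of -0.03. By limma 0 were called and 0 had an unadjusted p under 0.05, against 12.9% of all genes tested. Among them Il2rb, the interleukin-2 receptor chain at -36.1 kb from C1qtnf6, was higher in LS1 without overlap, at 151, 255 and 221 against 369, 1573 and 277 normalized counts, and Ccnjl near C1qtnf2 was lower without overlap. Of all genes tested, 10.3% were higher and 8.94% lower without overlap.

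The genes that followed C1qtnf3 most closely over the 6 libraries, among 13122 protein-coding genes with at least 100 normalized counts on average, were Pigf, Fam20b, Ywhae, Twf1 and Dcun1d4, with Pearson r from 0.993 to 0.995. Fam20b, a xylose kinase of proteoglycan synthesis, was at 8507 in Control and 12144 in LS1. With each group's mean taken out, Rab21, Elmod2, Nr3c1 and Rspry1 were among the closest, at r from 0.997 to 0.999, and none of these was among the 5 named before. These are the extremes of many correlations over 6 points that share the line difference and depth, and they carry no p-value. For the other members the closest gene was Itga5 for C1qtnf1 (r = 0.967), Cd47 for C1qtnf2 (0.987), Rnf122 for C1qtnf4 (0.982), Fxyd5 for C1qtnf6 (0.992), Gstm1 for C1qtnf7 (0.983) and Scap for C1qtnf12 (0.996). Among the members themselves, log2 levels over the 6 libraries gave r between -0.77, for C1qtnf3 and C1qtnf12, and 0.56, for C1qtnf6 and C1qtnf12.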

How the data were processed

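Epiphyseal RNA of the tibia was measured by RNAseq in 3 Control and 3 LS1 mice. The authors mapped the reads to GRCm38 (Ensembl release 84) with HISAT2 2.0.2, counted them per gene with featureCounts 1.4.6 and used DESeq2. The deposited table holds, per gene, a signal equal to the read count divided by 1 size factor per library, with 0 columns left unused. Reads were recovered by division, and 100% of values came out whole (within 0.01) in each library. For Control replicate 1 the step, 1.01, lay close to 1, and 1 alternative omits that library.

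Groups were compared on log2(value + 1) with limma 3.58.1 in R 4.3.3 (mean-variance trend, robust moderation), where the recovered reads averaged 20 or more. Benjamini-Hochberg adjustment covered all 19308 genes tested, with a threshold of 0.05. The pseudocount makes changes of low genes look smaller. Alternatives were edgeR 4.0.16, DESeq2 1.42.0 and limma-voom on the recovered reads, other scalings, filters and pseudocounts, a block, and each library left out. Scripts were tested on simulated data, where a limit on false calls was set for limma and edgeR but not for DESeq2. Libraries held at least 68803249 reads, so members with about 100 reads carry wide errors.

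Symbols, exons and coordinates came from GENCODE M21 (99.1% of identifiers matched) and promoter sequences from RefSeq. The members, gene lists, markers and the rule for named genes were chosen with earlier results of these data known. By that rule all members are named. From the C1q-domain and receptor lists come the genes called, the highest, the lowest and those at 1000 counts or more, and beside C1qtnf3 every gene within 500 kb. Other genes (C1qtnf5's partner Mfrp, C1qtnf9, Erfe, Npr3, Prlr, Il2rb and Ccnjl among them) were chosen after their values were seen. Protein sequences were not used here. One gene that the rule on likeness would name is not reported here.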

Additional observations from a re-analysis of the deposited data

How the results depend on the processing

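The number of genes called, 14 by limma, was 459 with DESeq2, 45 with no filter, 9 with a filter of 100 reads, 7 without robust moderation, 6 with edgeR on 5 libraries, and 5 to 324 with 1 library left out (46 without LS1 replicate 1, 324 without LS1 replicate 3, 9 without Control replicate 1 and 5 without Control replicate 2). The number of members called, 0 by limma, was 1 (C1qtnf3) with DESeq2, with no filter and with the replicate block, and 0 to 1 with a library left out, the 1 coming without LS1 replicate 3. Of the other C1q-domain genes, 0 by limma, 1 was called with DESeq2 and with no filter (Col10a1 in both), and 0 to 1 with a library left out, the 1 coming without LS1 replicate 3 (C1qb). The causes were not tested. The log2 difference of C1qtnf3 stayed between 0.81 and 1.17 over 18 settings, and that relative to chondrocyte markers between 0.33 and 0.63 over 9. The median of the other C1q-domain genes stayed between 0.07 and 0.18. C1qtnf1 was positive and C1qtnf4 and C1qtnf12 negative in all 18, while the sign of C1qtnf2, C1qtnf6 and C1qtnf7 varied (positive in 2, 2 and 14). The groups share a title letter, and the deviations of same-letter libraries correlated at 0.05, 0.02 and 0.22 across genes, so the letters were not taken as pairs. With the letter as a block, 12 genes were called. With 3 mice a group, genes with about 100 reads are limited by counting as well as by the spread of mice.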
